A study of Mus musculus with 4 samples.

Results

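The 39 *Hox* genes of the HoxA, HoxB, HoxC and HoxD clusters were compared between control and *Eya1*cKO kidney cells. They were taken by symbol, a cluster letter followed by a paralog number, and make up 39 of the 52636 genes on which reads were counted, with 11 genes in HoxA, 10 in HoxB, 9 in HoxC and 9 in HoxD. Antisense, long noncoding and microRNA genes of the clusters, 17 in all, were kept apart. The study asked which genes depend on the coactivator Eya1 in nephron progenitor cells, and RNA-seq was performed on tdTomato+ cells sorted by FACS from embryonic mouse kidneys (E12.5 to E12.75), with 2 control and 2 *Eya1*cKO libraries of 5000 cells each. Control embryos were *Eya1*CreER/+ with the tdTomato reporter. *Eya1*cKO embryos were *Eya1*CreER/+;*Eya1* fl/fl;*R26-tdTomato*. All embryos therefore carried *Eya1*CreER and the reporter, and all were exposed to tamoxifen that the mothers received by oral gavage. All kidneys were taken 48 h after the first dose, and the mice were on a mixed C57BL/6J and 129/Sv background. The genotypes are given as the study writes them, and whether CreER replaces an *Eya1* copy is not stated there. The study calls the sorted cells *Eya1*-lineage cells, that is, cells in which *Eya1*CreER was active when tamoxifen acted, together with their progeny. Cell suspensions were combined after genotyping and before sorting, so the 2 libraries of a genotype are portions of sorted cells rather than single embryos, and the *P* values below measure only the spread between these libraries. The labels and the methods give different numbers of kidneys and females.

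Hox genes encode homeodomain transcription factors, and their order along each cluster mirrors the order in which they are switched on along the body axis, from the anterior end (low paralog numbers) to the posterior end (high paralog numbers). Genes of the same number in different clusters are paralogs and can stand in for each other. In the metanephric kidney the Hox11 paralogs are known to act with Eya1 and Pax2 in the mesenchyme to switch on *Six2* and *Gdnf*, the Hox10 paralogs are required in the renal stroma, and *Hoxb7* is active in the ureteric bud.

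Reads on genes ranged from 35411905 to 37999342 in the control libraries and from 17457452 to 22239293 in the *Eya1*cKO libraries. A count of 3, taken as the limit of detection, corresponds to 0.0801 to 0.0859 CPM (the read count scaled to library size with TMM, edgeR's correction for library composition) in control libraries and to 0.133 to 0.171 CPM in the *Eya1*cKO ones, which covers counting error only. The targeted gene *Eya1* was at 6612 and 6420 reads in the controls and 377 and 219 in *Eya1*cKO (log2 fold change -3.60, SE 0.18, adjusted *P* = 1.9e-04 in edgeR). Signs of library quality moved with the genotype as well, with 12.9% to 13.9% of recorded reads on no gene in the controls against 20.9% to 22.7% in *Eya1*cKO, 6.32% to 6.69% against 12.7% to 12.9% not aligned, and 26486 to 27091 against 20538 to 21455 genes with a read. Their part in the *Hox* values was not tested. Markers of several cell types moved with the genotype. For comparison, 4.41% of all genes tested were lower and 5.15% higher at an adjusted *P* under 0.05 in edgeR. All 7 nephron progenitor markers were lower (summed level 1011 to 1041 CPM in the controls against 179 to 230 in *Eya1*cKO), as were 2 of 6 ureteric bud markers (141 to 142 against 43.4 to 69.0). The summed levels of podocyte markers (5 of 6 higher, 849 to 874 against 2568 to 2648), endothelial markers (6 of 6, 536 to 548 against 918 to 985), renal stroma markers (3 higher and 1 lower of 6, 1632 to 1657 against 2995 to 3215), adrenal cortex markers (6 of 6, 11.4 to 18.7 against 653 to 677) and sympathoadrenal markers (6 of 6, 3.24 to 3.37 against 345 to 391) were higher. None of the tested markers of skeletal muscle (1), blood (2) and gonad (4) passed the test, with no read of *Myf5* in any library, none at an unadjusted *P* under 0.05 in edgeR and none in DESeq2. In bulk samples fewer cells of a type and less RNA per cell cannot be told apart, and the part of these markers in the *Hox* values below was not tested.

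In the control libraries 36 and 37 of the 39 *Hox* genes had at least 1 read, 33 and 34 exceeded 1 RPKM (CPM per kilobase of exon, the scale used for all levels compared between genes), and 21 and 22 exceeded 10 RPKM. *Hoxb13* and *Hoxc12* had no read in any library. The most abundant per length were *Hoxa5*, a regulator of lung and axial patterning, at 48.4 ± 0.99 RPKM (SD, n = 2), then *Hoxb6* at 47.4 ± 2.17, *Hoxb9* at 46.5 ± 1.14, *Hoxc10* at 44.6 ± 0.57 and *Hoxa10* at 42.7 ± 2.70 RPKM. Neighbours in this order overlapped between their libraries except *Hoxb9* and *Hoxc10*. *Hoxd10* led the HoxD cluster at 33.8 ± 1.45 RPKM. Levels were low for *Hoxd1* (0.767 RPKM) and *Hoxb1* (1.21 RPKM) and for the genes numbered 13 (0 to 0.729 RPKM), whereas *Hoxc4*, the most anterior gene of HoxC, was at 28.1 RPKM. In *Eya1*cKO, *Hoxa5* was again first (40.2 ± 4.14 RPKM), *Hoxa6* ranked 2, after rank 12 in the controls (32.2 ± 8.07 RPKM), and *Hoxd11* ranked 19, after rank 10 (8.80 ± 0.91 RPKM).

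**Figure D1:**
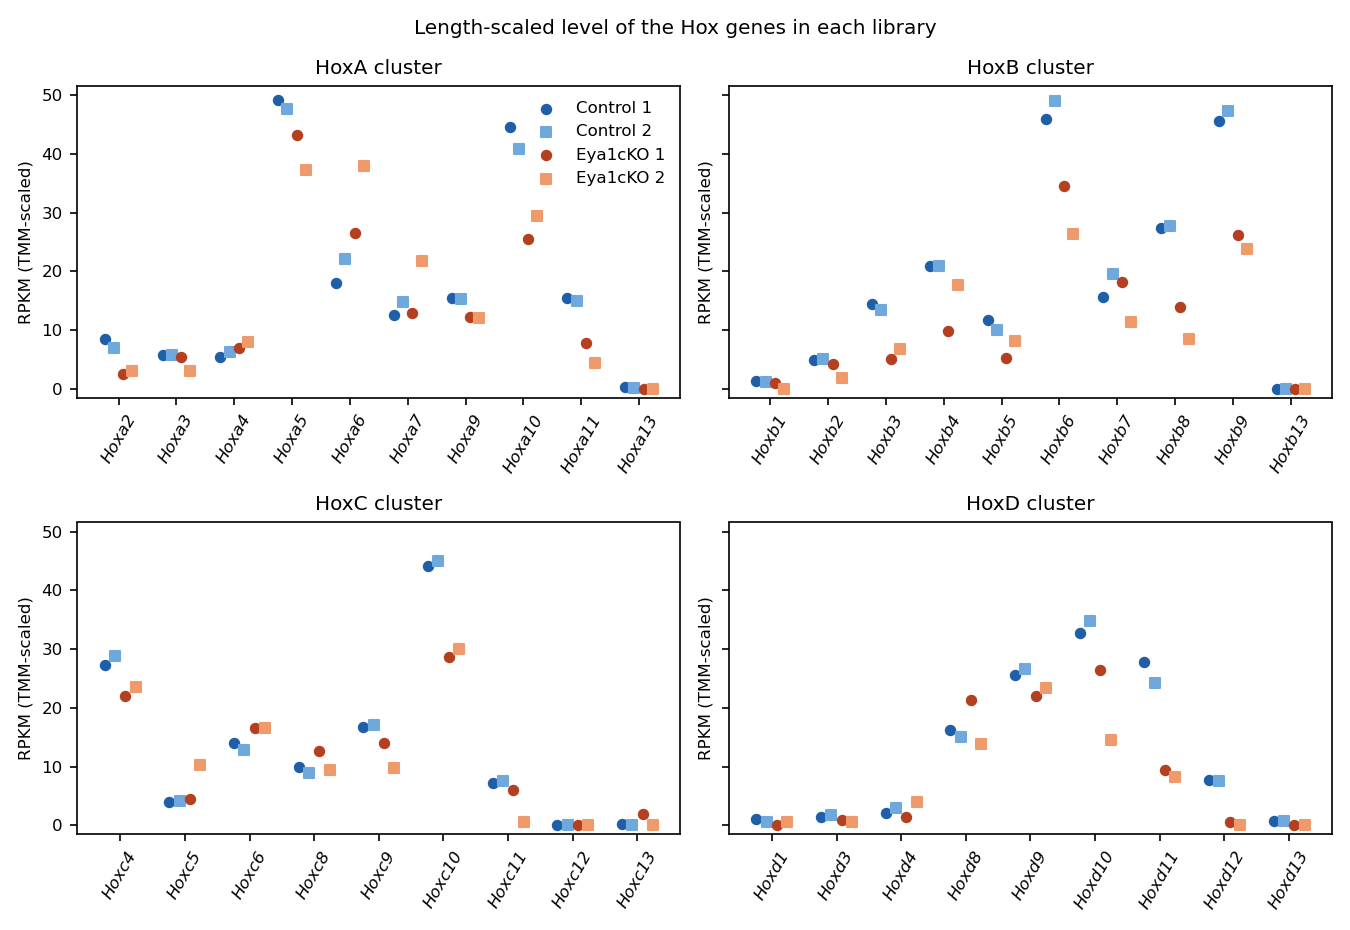
Length-scaled level (RPKM, y axis) of the *Hox* genes reported here (x axis, by paralog number) in the 2 control (blue) and 2 *Eya1*cKO (red and orange) libraries, in a panel for each cluster; each point is 1 library. *Hoxd11* and *Hoxd12* sit far lower in both *Eya1*cKO libraries, while *Hoxd8* and *Hoxd9* stay near the control points.

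Of the 39 genes, 36 passed the filter on low counts and were tested (all but *Hoxa13*, *Hoxb13* and *Hoxc12*). In *Eya1*cKO 8 fell, namely *Hoxa10*, *Hoxa11*, *Hoxb3*, *Hoxb8*, *Hoxb9*, *Hoxc10*, *Hoxd11* and *Hoxd12* (adjusted *P* under 0.05 in edgeR's quasi-likelihood test, adjusted over all 19041 genes tested). Of all genes tested, 4.41% were lower by the same rule. No *Hox* gene passed the test in the higher direction, whereas 5.15% of all genes tested did. At an unadjusted *P* under 0.05 in edgeR, 15 *Hox* genes were lower and 1 (*Hoxc13*) was higher, compared with 14.6% and 14.2% of all genes tested. DESeq2's Wald test called 11 *Hox* genes lower and 0 higher, compared with 6.57% and 9.18% of all genes it tested. Both *Eya1*cKO libraries lay below both controls for 24 of the 36 (30.0% of all genes tested) and above both for 4, *Hoxa4*, *Hoxa6*, *Hoxc5* and *Hoxc6* (25.3% of all genes tested), and the groups overlapped for the remaining 8. The median log2 fold change (*Eya1*cKO over control) was -0.62 over the 36 genes and 0.016 over all genes tested. The exact permutation test over 2 against 2 libraries cannot give a *P* below 0.33, so each call rests on the spread that edgeR shares across genes.

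The number of calls depended on the libraries. With control 1 or control 2 left out, none of the 8 passed in edgeR, when 0.0378% and 0.0328% of all genes tested were lower. Without *Eya1*cKO 1 or *Eya1*cKO 2 all 8 passed and the lower *Hox* calls came to 20 and 16, when 14.8% and 15.5% of all genes were lower. The log2 fold change of *Hoxd11* ranged from -1.68 to -1.47 over these 4 fits and that of *Hoxd12* from -6.80 to -4.03. *Hoxa11* and *Hoxb3* share 35.0% and 52.9% of their exonic length with the antisense genes *Hoxa11os* and *Hoxb3os*. Whether reads on the shared bases were assigned or dropped is not known, because the strand setting of the counting is not stated. Without the genes that share over 25% of their exonic length, 6 were lower.

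**Figure D2:**
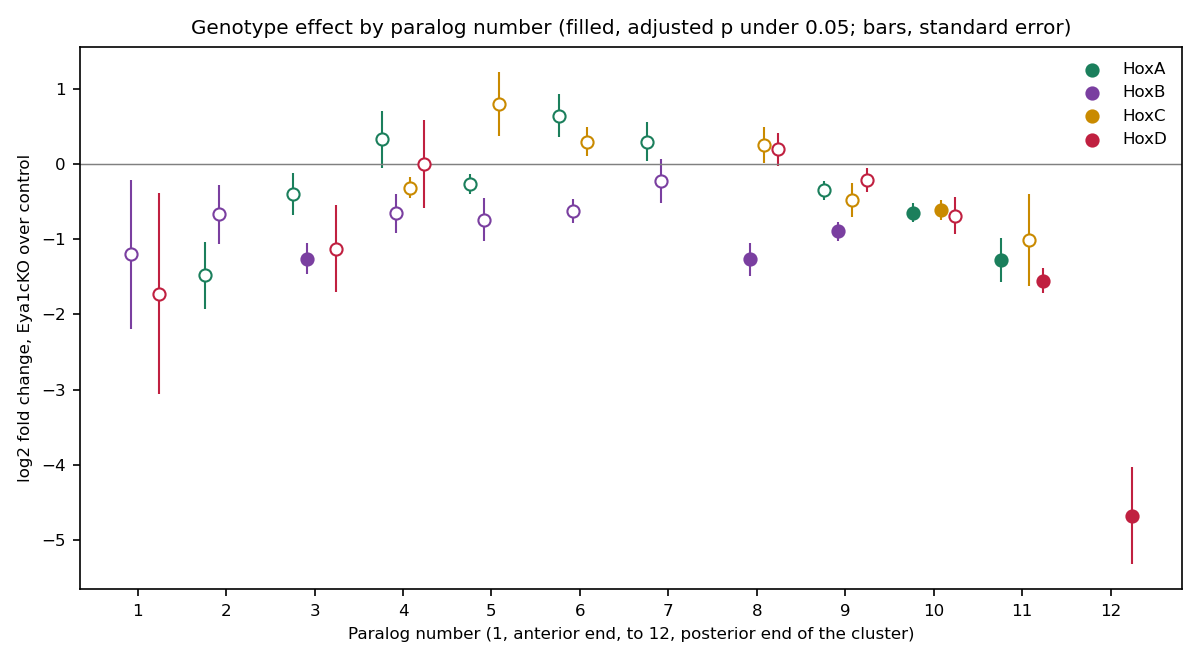
Log2 fold change (*Eya1*cKO over control, y axis) of the tested *Hox* genes reported here against paralog number (x axis, anterior to posterior), coloured by cluster; bars are standard errors and filled points have an adjusted *P* under 0.05. *Hoxd13*, with no read in *Eya1*cKO, and *Hoxc13*, with reads in 1 *Eya1*cKO library, are not drawn. From paralog 9 to 12 all points lie below 0, ending with *Hoxd12* at -4.68.

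The steepest differences lay at the posterior end of HoxD (chromosome 2, GRCm38), where the level kept in *Eya1*cKO was 86.8% of control for *Hoxd9*, 60.5% for *Hoxd10*, 33.8% for *Hoxd11* and 3.54% for *Hoxd12*. *Hoxd12*, known for its role in the developing limb, was counted at 676 and 721 reads in the controls and at 27 and 3 reads in *Eya1*cKO, or 7.64, 7.60, 0.471 and 0.0675 RPKM. *Eya1*cKO 2 was at the limit of detection and *Eya1*cKO 1 above it, and the level was 3.54% of control (log2 fold change -4.68, SE 0.65, adjusted *P* = 0.0056 in edgeR). Of 1457 genes with a control read count within 25% of its own, 2 were at or below this percentage, *Hoxd12* included. *Hoxd13*, the last gene of the cluster and a regulator of the limb and the terminal urogenital tract, had 62 and 69 reads in the controls and none in either *Eya1*cKO library. Against the limit of 3 counts per library its level was at least 11.9-fold lower (adjusted *P* = 0.105 in edgeR, not past the threshold, and 0.0080 in DESeq2's Wald test). Of 1269 genes with a like control count, *Hoxd13* included, 34 (2.68%) had no read in both *Eya1*cKO libraries.

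*Hoxd11*, a Hox11 paralog needed with *Hoxa11* for the metanephric kidney, was at 27.9 and 24.2 RPKM in the controls and 9.45 and 8.16 RPKM in *Eya1*cKO. Its libraries were well apart, with a level of 33.8% of control (log2 fold change -1.55, SE 0.16, adjusted *P* = 0.0033 in edgeR), and it passed the threshold in every alternative that kept all 4 libraries. *Hoxd10* was at 32.8 and 34.8 RPKM in the controls and 26.5 and 14.5 RPKM in *Eya1*cKO. The second *Eya1*cKO library set most of this difference (log2 fold change -0.68, SE 0.25, adjusted *P* = 0.129 in edgeR, and -0.37 without *Eya1*cKO 2 against -1.24 without *Eya1*cKO 1). *Hoxd9* was close to its control level, at 25.6 and 26.6 against 22.0 and 23.3 RPKM (log2 fold change -0.21, SE 0.16, adjusted *P* = 0.421 in edgeR). *Hoxd8* overlapped between the genotypes, at 16.2 and 15.0 against 21.3 and 13.9 RPKM (log2 fold change 0.20, SE 0.22, adjusted *P* = 0.597 in edgeR). Together, *Hoxd11*, *Hoxd12* and *Hoxd13* gave 31.4% and 28.5% of the cluster's summed RPKM in the controls and 12.1% and 12.7% in *Eya1*cKO, a share that scaling between libraries cannot change. The share of *Hoxd8* went from 14.1% and 13.2% to 26.01% and 21.4%. At the anterior end, *Hoxd3* was at 1.48 and 1.70 against 0.908 and 0.503 RPKM (log2 fold change -1.12, SE 0.58, adjusted *P* = 0.253 in edgeR), while *Hoxd1* and *Hoxd4* overlapped. *Hoxd3* and *Hoxd4* share 62.9% and 52.3% of their exonic length with other genes, each other included, and are uncertain.

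The 250 bases before the annotated start of 2 HoxD genes that fell (*Hoxd12* and *Hoxd11*), of *Hoxd8*, which did not pass the test, and of *Hoxb8*, a HoxB gene that fell, are shown from RefSeq (GRCm38.p6), 5' to 3' on the + strand. Capitals mark matches, on either strand, to 5 short motifs. TTTATNG is read by CDX and posterior HOX factors, TGATNNAT by PBX together with HOX, TGACAG by MEIS factors and CCAAT by the factor NF-Y. The core promoter box is TATAAA, which can overlap a match to the first of these motifs.
Hoxd12, chr2:74674763-74675012: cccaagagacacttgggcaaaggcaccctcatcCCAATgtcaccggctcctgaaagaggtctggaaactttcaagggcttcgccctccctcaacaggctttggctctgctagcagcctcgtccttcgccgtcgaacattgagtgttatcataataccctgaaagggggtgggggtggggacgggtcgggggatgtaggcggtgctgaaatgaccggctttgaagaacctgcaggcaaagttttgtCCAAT
Hoxd11, chr2:74682073-74682322: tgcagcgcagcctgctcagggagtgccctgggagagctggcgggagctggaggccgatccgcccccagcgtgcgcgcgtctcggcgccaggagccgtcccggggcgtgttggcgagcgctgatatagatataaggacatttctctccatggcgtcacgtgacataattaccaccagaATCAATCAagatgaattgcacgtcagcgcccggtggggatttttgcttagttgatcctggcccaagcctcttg
Hoxd8, chr2:74704365-74704614: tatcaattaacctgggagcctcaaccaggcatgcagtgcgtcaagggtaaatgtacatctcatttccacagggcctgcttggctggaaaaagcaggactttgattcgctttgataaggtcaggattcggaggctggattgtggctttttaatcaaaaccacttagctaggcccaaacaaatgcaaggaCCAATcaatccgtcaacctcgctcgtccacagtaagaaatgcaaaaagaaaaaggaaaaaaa
Hoxb8, chr11:96281655-96281904: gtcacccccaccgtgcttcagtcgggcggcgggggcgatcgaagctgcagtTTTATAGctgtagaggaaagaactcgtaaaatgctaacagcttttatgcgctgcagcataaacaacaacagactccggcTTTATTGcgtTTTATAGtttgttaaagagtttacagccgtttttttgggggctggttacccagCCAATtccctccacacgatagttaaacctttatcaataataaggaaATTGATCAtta

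*Hoxd12*, with the steepest fall, held 2 CCAAT matches, *Hoxd11* 1 match to the PBX-HOX letters and *Hoxd8* 1 CCAAT match, so none of the motifs was shared by *Hoxd12* and *Hoxd11*. *Hoxb8* held 7 matches, 3 of them to TTTATNG. The RefSeq table had windows for 22 of the 39 *Hox* genes, 24 windows in all since *Hoxa10* and *Hoxd11* had 2 each. TTTATNG was present in 2 of the 24 (*Hoxb8* and *Hoxd4*, 8.33%) against 9.81% of all 32851 windows, and TGATNNAT in 4 (*Hoxa2*, *Hoxb1*, *Hoxb8* and *Hoxd11*, 16.7%) against 7.68%. TGACAG was present in 2 (8.33% against 15.9%), TATAAA in 4 (16.7% against 12.4%) and CCAAT in 14 (58.3% against 33.9%). The *Hox* windows held a median of 12.5 CpG against 6 over all windows, with 10 in *Hoxd12* and 6 in *Hoxd8*. The *Hoxd11* window shown lies inside the gene's GENCODE span and held 20 CpG, whereas the other *Hoxd11* window (chr2:74679308-74679557), at the outermost annotated start, held 2 CpG and no motif match. These matches describe the sequence and are not binding sites.

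In HoxA (chromosome 6) *Hoxa10* and *Hoxa11* were lower, and the other 8 tested genes did not pass. *Hoxa11* was at 15.4 and 15.0 RPKM in the controls and 7.76 and 4.41 RPKM in *Eya1*cKO, or 1234, 1282, 401 and 177 reads. Both *Eya1*cKO libraries were below both controls, with a level of 40.0% of control (log2 fold change -1.28, SE 0.29, adjusted *P* = 0.041 in edgeR). This call sat near the threshold. It was lost with no filter on low counts, with edgeR's older quasi-likelihood method and with all libraries thinned to the shallowest. It was also lost with the replicate number as a block, which gave the highest adjusted *P* over the alternatives on all 4 libraries (0.109 in edgeR). *Hoxa10*, a Hox10 paralog, was at 44.6 and 40.8 RPKM in the controls and 25.6 and 29.4 RPKM in *Eya1*cKO, which did not overlap (log2 fold change -0.64, SE 0.12, adjusted *P* = 0.024 in edgeR). *Hoxa9* was at 15.5 and 15.4 against 12.2 and 12.1 RPKM, also apart but not past the threshold (log2 fold change -0.34, SE 0.13, adjusted *P* = 0.135 in edgeR). *Hoxa5*, the most abundant *Hox* gene per length, was at 49.1 and 47.7 against 43.1 and 37.3 RPKM (log2 fold change -0.26, SE 0.13, adjusted *P* = 0.252 in edgeR). *Hoxa6* pointed the other way, at 18.1 and 22.1 against 26.5 and 37.9 RPKM, without passing the test (log2 fold change 0.65, SE 0.29, adjusted *P* = 0.191 in edgeR).

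Within HoxA the genes numbered 5 to 7 thereby gave 45.1% and 48.0% of the summed RPKM in the controls and 57.1% and 61.0% in *Eya1*cKO, and those numbered 9 to 13 gave 42.9% and 40.4% against 31.5% and 28.9%. *Hoxa2*, known for its role in the hindbrain and the second branchial arch, had 523 and 462 reads in the controls and 102 and 94 in *Eya1*cKO. Its level was 36.1% of control, with the groups apart, but it missed the threshold in edgeR (log2 fold change -1.48, SE 0.44, adjusted *P* = 0.088) and passed it in DESeq2's Wald test (adjusted *P* = 0.022). *Hoxa13* had 29 and 7 reads in the controls and none in *Eya1*cKO, and was too low to test. *Hoxa3*, *Hoxa4* and *Hoxa7* had log2 fold changes from -0.39 to 0.33 and did not pass.

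HoxB (chromosome 11) showed the most even difference. All 9 tested genes had negative log2 fold changes, from -1.26 to -0.22 with a median of -0.74. For 8 of them each *Eya1*cKO library was lower than each control, *Hoxb7* being the exception. Over all 19041 genes tested, 9311 had negative log2 fold changes, and 30.0% had both *Eya1*cKO libraries below both controls. *Hoxb9* was at 45.7 and 47.3 RPKM in the controls and 26.1 and 23.7 RPKM in *Eya1*cKO, or 53.6% of control (log2 fold change -0.89, SE 0.13, adjusted *P* = 0.0085 in edgeR). *Hoxb8* was at 27.4 and 27.8 against 13.9 and 8.50 RPKM, or 40.7% of control (log2 fold change -1.26, SE 0.22, adjusted *P* = 0.017 in edgeR, and 0.052 with its older quasi-likelihood method). *Hoxb3* was at 14.4 and 13.4 against 5.03 and 6.81 RPKM, or 42.6% of control (log2 fold change -1.26, SE 0.21, adjusted *P* = 0.015 in edgeR). These 3 genes were apart between the genotypes in every library. *Hoxb6*, the most abundant of the cluster per length, was at 45.9 and 49.0 against 34.5 and 26.3 RPKM and missed the threshold (log2 fold change -0.62, SE 0.16, adjusted *P* = 0.057 in edgeR, and 0.020 in DESeq2's Wald test).

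*Hoxb7*, the ureteric bud gene of the cluster, lies next to *Hoxb8* but overlapped between the genotypes, at 15.6 and 19.6 RPKM in the controls and 18.1 and 11.4 RPKM in *Eya1*cKO (log2 fold change -0.22, SE 0.29, adjusted *P* = 0.667 in edgeR). The ratio of *Hoxb8* to *Hoxb7* reads was 3.002 and 2.42 in the controls and 1.31 and 1.27 in *Eya1*cKO. *Hoxb1*, known for the hindbrain, had 110 and 93 reads in the controls, 49 in *Eya1*cKO 1 and none in *Eya1*cKO 2 (log2 fold change -1.20, SE 0.99, adjusted *P* = 0.463 in edgeR). The value was -0.39 without *Eya1*cKO 2, and without *Eya1*cKO 1, which left a library with no read, the adjusted *P* was 0.011 in edgeR and the fitted fold is no bound. Of 1164 genes with a like control count, *Hoxb1* included, 90 (7.73%) had no read in at least 1 *Eya1*cKO library. *Hoxb2*, *Hoxb4* and *Hoxb5* had log2 fold changes from -0.74 to -0.65 without passing.

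In HoxC (chromosome 15) 1 of 8 tested genes fell. *Hoxc10* was at 44.2 and 45.0 RPKM in the controls and 28.7 and 29.9 RPKM in *Eya1*cKO, with the libraries of a genotype close to each other and the genotypes apart (log2 fold change -0.61, SE 0.14, adjusted *P* = 0.038 in edgeR, and up to 0.130 over the alternatives on all 4 libraries). *Hoxc11* was at 7.21 and 7.45 RPKM in the controls but at 6.04 and 0.592 RPKM in *Eya1*cKO, or 509, 564, 276 and 21 reads. Its *Eya1*cKO libraries differed by more than 10-fold, as did those of 5 of 1367 genes with a like control count (*Hoxc11* included), and no call was made (log2 fold change -1.01, SE 0.61, adjusted *P* = 0.321 in edgeR). The value was -0.30 without *Eya1*cKO 2 and -3.64 without *Eya1*cKO 1. *Hoxc13* had 14 and 0 reads in the controls and 111 and 0 in *Eya1*cKO, so that a lone library carried its positive value (log2 fold change 3.8, SE 1.61, adjusted *P* = 0.161 in edgeR). *Hoxc5* was at 3.95 and 4.11 RPKM in the controls and 4.46 and 10.3 RPKM in *Eya1*cKO (log2 fold change 0.81, SE 0.43, adjusted *P* = 0.259 in edgeR). *Hoxc4*, *Hoxc6*, *Hoxc8* and *Hoxc9* had log2 fold changes from -0.48 to 0.30 and did not pass. The cluster's median was -0.03, compared with -0.30 in HoxA, -0.74 in HoxB and -1.12 in HoxD.

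Read by paralog number, most lower calls were at the posterior end, but negative values were not particular to it. Of the 13 tested genes numbered 9 to 13, 6 were lower, 12 had negative log2 fold changes and both *Eya1*cKO libraries were below both controls for 12, with *Hoxc13* as the exception (median -0.68). Of the 12 numbered 1 to 4, 1 was lower (*Hoxb3*, median -0.66), and of the 11 numbered 5 to 8, 1 was lower (*Hoxb8*, median 0.20). The same counts over all 19041 genes tested were 4.41% lower, 9311 negative and 30.0% with both *Eya1*cKO libraries below both controls. The median became more negative from the genes numbered 9 (-0.41) to those numbered 10 (-0.64) and 11 (-1.28), and *Hoxd12*, the tested gene numbered 12, stood at -4.68. At the anterior end the medians of the genes numbered 1, 2 and 3 were of the size seen for Hox11 (-1.20, -1.07 and -1.12), with 1 call among them and SE of 0.21 to 1.34, against 0.16 to 0.61 for the Hox11 genes, and that of the genes numbered 4 was -0.15. Whether these groups differ from each other was not tested.

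The summed level of a paralog group counts the genes that can replace each other. The 3 Hox11 genes summed to 167 and 151 CPM in control 1 and 2 against 69.7 and 45.7 CPM in *Eya1*cKO 1 and 2, or 36.2% of control. The Hox10 genes summed to 290 and 283 against 187 and 180 CPM (64.0%) and the Hox9 genes to 299 and 306 against 217 and 202 CPM (69.2%). Of the anterior groups, the Hox2 genes summed to 32.3 and 29.8 against 19.0 and 11.9 CPM (49.7%) and the Hox3 genes to 101.9 and 98.3 against 57.5 and 49.5 CPM (53.4%). All of these sums were apart between the genotypes. The 2 Hox7 genes summed to 60.4 and 72.6 against 65.2 and 80.3 CPM (109%), which overlapped. Over all 39 genes the sum was 1542 and 1530 CPM against 1094 and 1041 CPM, or 69.5% of control, with 79.1% in HoxA, 56.1% in HoxB, 86.6% in HoxC and 59.7% in HoxD. In the same libraries the summed nephron progenitor markers were at 19.9% of control, the ureteric bud markers at 39.7% and the renal stroma markers at 189%, and their part in the *Hox* sums was not tested. The exact permutation test of a sum cannot go below 0.33 with these libraries.

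Ratios of neighbouring genes within a library do not depend on how libraries are scaled. The ratio of *Hoxd12* to *Hoxd11* reads was 0.165 and 0.189 in the controls and 0.0300 and 0.00498 in *Eya1*cKO, that of *Hoxd11* to *Hoxd10* was 1.97 and 1.61 against 0.828 and 1.31, and that of *Hoxd10* to *Hoxd9* was 1.09 and 1.11 against 1.03 and 0.528. Over the longer step from *Hoxd9* to *Hoxd11* the ratio was 2.15 and 1.80 against 0.848 and 0.690. In HoxA the ratio of *Hoxa11* to *Hoxa10* was 0.242 and 0.257 against 0.212 and 0.105, and that of *Hoxa10* to *Hoxa9* was 1.69 and 1.56 against 1.23 and 1.43. These pairs were apart between the genotypes, *Hoxd10* to *Hoxd9* and *Hoxa11* to *Hoxa10* by a small margin in *Eya1*cKO 1 and *Hoxa10* to *Hoxa9* by a small margin in *Eya1*cKO 2, and how often other pairs of genes are apart was not tested. *Hoxb9* to *Hoxb8* went the other way (1.63 and 1.66 against 1.83 and 2.73), and in HoxC both ratios overlapped.

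**Figure D3:**
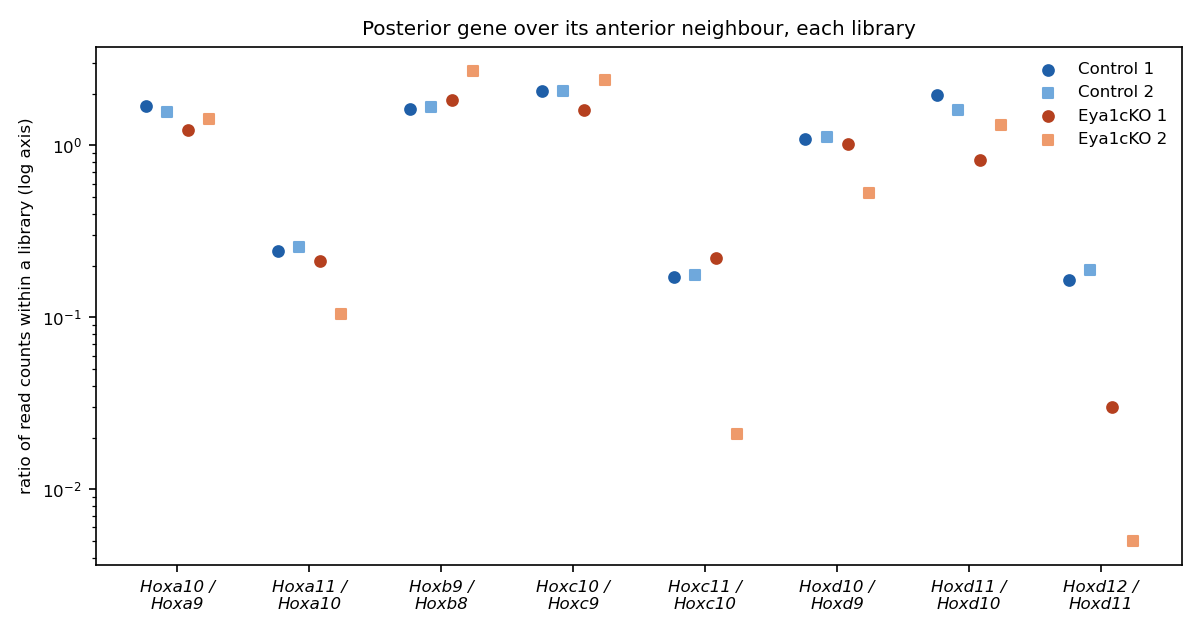
Reads of each posterior *Hox* gene divided by the reads of its anterior neighbour (y axis, log scale, no unit) for 8 neighbouring pairs (x axis) in the 2 control (blue) and 2 *Eya1*cKO (red and orange) libraries; each point is 1 library. *Hoxd12* over *Hoxd11* lies far lower in both *Eya1*cKO libraries, at 0.0300 and 0.00498 against 0.165 and 0.189.

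Genes that work with Hox proteins in the metanephric mesenchyme also fell. Of 6 partners and targets of the Hox11 proteins, 5 were lower in edgeR (median log2 fold change -2.48), compared with 4.41% of all genes tested. Besides *Eya1* these were *Six2*, the progenitor transcription factor (8655 and 9150 reads in the controls against 377 and 80), *Gdnf*, the ligand that induces the ureteric bud (4250 and 5159 against 347 and 419), *Pax2* (21402 and 22950 against 2877 and 2469) and *Itga8*, the integrin subunit of the mesenchyme (5169 and 5478 against 1706 and 1603). *Eya1* and *Six2* are also among the progenitor markers, and the study named most of this list from these libraries, so its direction is not independent evidence. *Itga8* kept 56.7% of its control level and *Hoxd11* 33.8%, compared with 4.32% for *Six2* and 15.1% for *Gdnf*.

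The TALE cofactors are homeodomain partners that bind DNA together with Hox proteins. Of 9 tested, 1 was lower (4.41% of all genes tested were), *Meis2*, with 15118 and 15609 reads in the controls and 7094 and 4601 in *Eya1*cKO (log2 fold change -0.55, SE 0.10, adjusted *P* = 0.017 in edgeR), and the median was -0.06. *Meis1* and *Pbx2* had log2 fold changes of 0.00. *Pbx4* had 78 and 127 reads in the controls and 7 and 1 in *Eya1*cKO without passing (adjusted *P* = 0.085 in edgeR). Of 12 genes known to regulate the clusters 9 were tested, and 2 Polycomb members were lower, *Bmi1* (3726 and 3872 against 1141 and 1040 reads, log2 fold change -0.95, SE 0.14, adjusted *P* = 0.0099 in edgeR) and *Ezh2* (7224 and 7689 against 3247 and 2167 reads, log2 fold change -0.62, SE 0.11, adjusted *P* = 0.016 in edgeR). *Kmt2a*, the Trithorax methyltransferase, was at 314 and 308 CPM in the controls and at 248 and 393 CPM in *Eya1*cKO, below both controls in 1 library and above both in the other (log2 fold change 0.03, SE 0.19). *Cdx4* and *Men1* had no read in any library, and *Cdx1* and *Cdx2* had at most 25 reads.

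**Figure D4:**
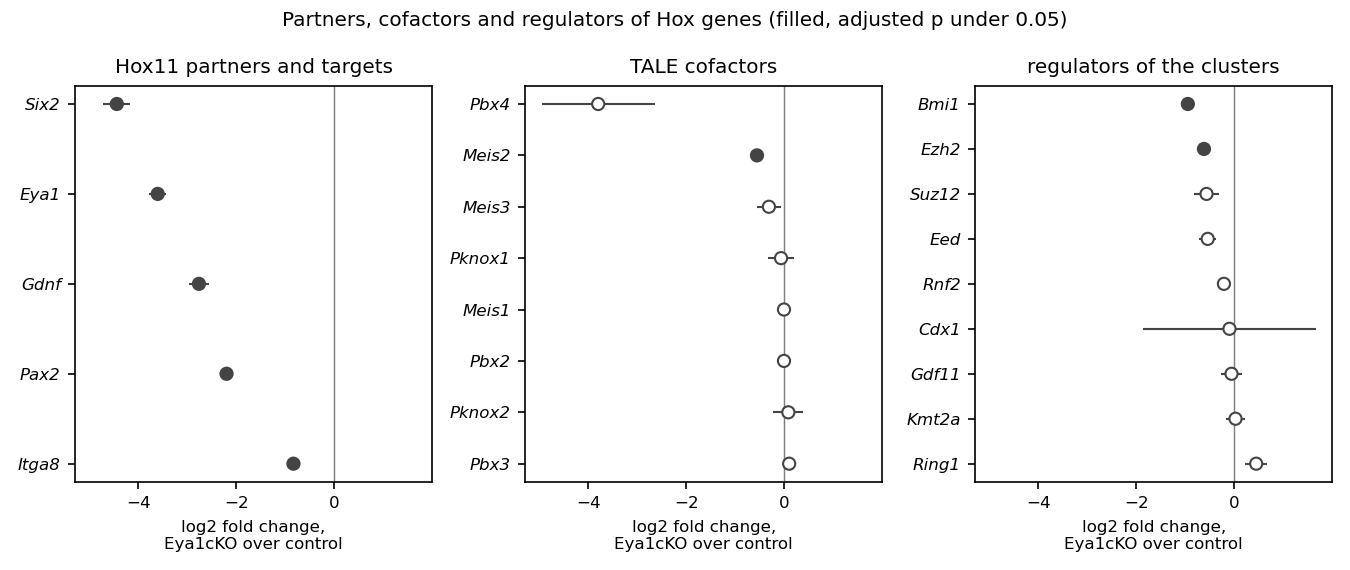
Log2 fold change (*Eya1*cKO over control, x axis) of tested genes that work with or regulate Hox genes and are reported here, in 3 panels; bars are standard errors and filled points have an adjusted *P* under 0.05. All 5 Hox11 partners and targets drawn were lower, with 1 cofactor (*Meis2*) and 2 regulators (*Bmi1* and *Ezh2*).

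MicroRNAs encoded within the clusters are known to target Hox transcripts, and their seeds (bases 2 to 8, in capitals) are shown for reading the match counts that follow.
miR-10a-5p: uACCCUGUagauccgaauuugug
miR-10b-5p: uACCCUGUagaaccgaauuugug
miR-196a-5p: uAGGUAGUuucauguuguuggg
miR-196b-5p: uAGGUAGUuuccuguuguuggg

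The sequences are from RefSeq, and each pair shares 1 seed. A match to the miR-196 seed was present in the 3' UTR of 9 of the 39 *Hox* genes (23.1%) against 6.10% of 21022 genes with a 3' UTR in GENCODE M21. These 9 genes, among them *Hoxa4*, *Hoxa5*, *Hoxa7*, *Hoxa9*, *Hoxb1*, *Hoxb6*, *Hoxb7* and *Hoxc8*, had a median log2 fold change of -0.22. None was among the 8 genes lower in edgeR, where 4.41% of all genes tested were lower. A match to the miR-10 seed was present in 4 *Hox* genes (10.3% against 12.5%), of which *Hoxb3* was lower. The known miR-196a site in *Hoxb8*, whose seed pairing holds a wobble, lies in its 3' UTR at chr11:96284888-96284909 (GRCm38, + strand), with the base that pairs as a G:U wobble in lower case.
Hoxb8 site: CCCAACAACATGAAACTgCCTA

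It is complementary to miR-196a-5p at 21 of 22 bases. In edgeR *Hoxb8* was lower in *Eya1*cKO and none of the 9 genes with a seed match was. As 4.41% of all genes tested were lower in edgeR, no call among 9 genes is near that share. *Hoxb6*, among those 9, was lower in DESeq2's Wald test (adjusted *P* = 0.020). Mature microRNAs were not measured in these mRNA libraries.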

How the data were processed

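The authors sequenced mRNA of FACS-sorted cells on a NextSeq instrument from SMARTer stranded libraries, mapped it to mm10 with HISAT2 and deposited the counts of HTSeq on Ensembl genes, not normalized. The strand setting of HTSeq is not given in the sources used here. The authors tested genotype with DESeq2. Each count file also held lines for reads on no gene and for reads not aligned, which were left out.

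The analysis used edgeR 4.0.16 in R 4.3.3, with filterByExpr with a minimum count of 10, TMM scaling, glmQLFit and glmQLFTest on genotype, and Benjamini-Hochberg adjustment at 0.05 over all genes kept. The test was checked on simulated data. SE was obtained by dividing the size of the log2 fold change by the root of its F statistic. RPKM divides CPM by exonic length in GENCODE M21 (GRCm38), a later release than the one counted on. Counts of 3 or fewer were taken as the limit of detection. DESeq2 1.42.0, other scalings and filters, a replicate block, thinning and the omission of each library were run as alternatives. The *Hox* genes and all lists were chosen with earlier results of these data known, and the pattern for noncoding genes, the neighbour ratios and the shares of a cluster were settled after values were seen. By rule, library values and full statistics are given for each *Hox* gene past the threshold, the Hox10 and Hox11 genes, the most abundant gene of each cluster per length and any gene with libraries apart and an absolute log2 fold change over 1, and the targeted gene comes first. Results of some genes counted in these lists are not reported here. Other *Hox* genes with values were named after these had been seen. Libraries of a genotype differed beyond sampling noise (chi-square per degree of freedom 9.68 in control and 49.7 in *Eya1*cKO) and were counted as separate.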

Additional observations from a re-analysis of the deposited data

How the results depend on the processing

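Over all genes tested, 1820 were called, against 1055 with no filter on low counts, 3102 in DESeq2's Wald test, 1096 with edgeR's older quasi-likelihood method, 621 with the replicate block and 23 to 7925 with a library left out. Fewer samples enter when a library is left out, and its genotype then has a lone library that is assumed to vary like the other genotype. Lower *Hox* calls numbered 8 with TMM scaling, DESeq2's size factors, library totals alone and a minimum of 10 counts in every library (7 of them shared, with *Hoxb6* called and *Hoxd12* not tested), 6 with no filter or with thinning, 11 in DESeq2's Wald test, 5 with the older method (*Hoxa11*, *Hoxb8* and *Hoxc10* not past it), 2 with the replicate block (*Hoxd11* and *Hoxd12*) and 0 to 20 with a library left out. Higher *Hox* calls ranged from 0 to 3 with a library left out and were 0 otherwise, with *Hoxa6*, *Hoxa7* and *Hoxc5* called without *Eya1*cKO 1 and *Hoxc13* and *Hoxd8* without *Eya1*cKO 2. The replicate numbers come from the labels alone. The deviations of control 1 and *Eya1*cKO 1 from their group means had a correlation of 0.0113 over genes. With 2 libraries per genotype this cannot show whether same-numbered libraries were prepared together, so the replicate block was kept as an alternative. The log2 ratio of summed CPM moved without the gene of most reads from -0.34 to -0.23 in HoxA (*Hoxa10*), from -0.21 to -0.067 in HoxC (*Hoxc10*) and from -0.74 to -0.43 in HoxD (*Hoxd11*). The median log2 fold change of all genes was -0.209 with no filter and -0.182 in DESeq2's Wald test, with other genes tested. For the 16 *Hox* genes given in full, no direction reversed under any alternative. *Hoxa13*, *Hoxb13* and *Hoxc12* had too few reads to test at this depth. The cause of these changes was not tested.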

Other observations

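Of the 17 noncoding genes of the *Hox* clusters, 11 were tested and none passed the threshold in edgeR, with 2 lower and 2 higher at an unadjusted *P* under 0.05 (14.6% and 14.2% of all genes tested) and a median log2 fold change of -0.80. DESeq2's Wald test called 1 higher, *Mir196a-1*, as it did 9.18% of all genes it tested. At the anterior part of HoxD the antisense genes were low in *Eya1*cKO, with *Haglr* at 137 and 158 reads in the controls and 19 and 17 in *Eya1*cKO (adjusted *P* = 0.106 in edgeR) and *Hoxd3os1* at 195 and 183 against 40 and 22 (adjusted *P* = 0.142). Both lay below the controls in both *Eya1*cKO libraries. *Hotair*, the long noncoding RNA of HoxC, was at 9 and 13 reads in the controls and 16 and 91 in *Eya1*cKO (adjusted *P* = 0.121 in edgeR), and *Mir196a-1* at 53 and 53 against 87 and 162 (adjusted *P* = 0.123), so these lay above the controls in both. *Hottip*, *Mir196a-2* and *Mir196b* had no read in any library. Reads on a microRNA gene in an mRNA library do not measure the mature microRNA.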
